A study of Mus musculus with 12 samples.

Results

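Nuclei of fibroblast type from the coverings of the brain were examined in the newborn mouse forebrain, as 2387 of 101801 nuclei (2.34%) that passed the quality filter. They were chosen by the measured UMIs (unique molecular identifiers, tags that mark each captured RNA molecule) of 4 genes for matrix proteins of fibroblasts. These were Col1a1 and Col1a2, the chains of type I collagen, Col3a1, the chain of type III collagen, and Dcn, the small proteoglycan decorin. A nucleus with 800 to 6000 UMIs, 300 to 3000 genes and at most 1% mitochondrial UMIs was a member where these genes summed to at least 3 UMIs, at least 2 of them were detected, and the sum was no lower than that of the mural genes Pdgfrb, Rgs5, Abcc9 and Notch3. The levels of these 8 genes in members, and of any gene that goes with them, are therefore a description and not a test.

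The study asked which cells of the developing forebrain are affected when 1 copy of Myt1l is lost, whose product is a neuronal zinc finger protein that binds DNA. At postnatal day 1, 8 wild-type (WT) and 4 heterozygous (Het) libraries were made, each from the forebrain of 1 animal, with 5 males and 3 females in WT and 3 males and 1 female in Het. Het animals carried the S710fsX frameshift allele of Myt1l beside an intact one, WT animals carried 2 intact copies, and both genotypes came from crosses of Het animals with C57BL/6J mice. The study's text gives the group sizes in both orders and names the prefrontal cortex in 1 place, so the groups and the tissue follow the labels here. Banked frozen tissue from 4 litters was used and the libraries shared their barcoding plates in 1 batch, so no barcoding batch separates the genotypes. When the nuclei of each animal were isolated and fixed is not stated. The litter of each animal is not in the labels. A library held 15439429 to 40784144 UMIs in all, and its members held between 198067 and 711919 of them. The libraries shared 0 barcodes.

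The meninges wrap the brain in layers. The pia lies on the brain and lays down, with the glia, the basement membrane at its surface. The arachnoid forms a barrier around the cerebrospinal fluid, with tight junctions and transporters, and the dura lies outermost against the skull. Their fibroblasts deposit collagen, release the chemokine Cxcl12, and make retinoic acid and bone morphogenetic proteins that reach the growing cortex, and fibroblasts also line the larger vessels of the brain. The study describes removing the meninges from embryonic brains, and the newborn tissue was taken in a similar way, so a count of members here is also a count of what stayed on the tissue. How much was left on each brain is not in the labels, and its part in the differences between libraries was not tested.

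A member held a median of 1779 UMIs, 1246 genes and 6 UMIs of the rule genes. Members stood close to the minimum in many cases: 404 (16.9%) had at least 3 and under 4 UMIs of the rule genes. Just outside it, 386 nuclei met every other condition with at least 2 and under 3 such UMIs, 155 nuclei had 3 or more from a single gene, and 20 had a higher mural sum. At the other end 567 members (23.8%) held 10 or more. Free RNA gives UMIs of a gene in nuclei that do not express it, and 3.01% of 16205 nuclei with excitatory neuron markers and 3.40% of 8893 with inhibitory neuron markers held any UMI of the 4 genes. These groups leave out members, which lowers their shares. With members that carried the neuron markers counted in, 3.48% of 16283 and 3.95% of 8944 nuclei held any such UMI, and 0.528% and 0.615% held 3 or more. The groups without members stood at library medians of 2577.5 to 3338 and 2110 to 2800.5 UMIs against 1500 to 2157 in members. Nuclei marked as mural, the contractile cells on vessel walls, numbered 821 and were by definition nuclei with a higher mural sum. Of 854 nuclei marked as endothelial, the lining of vessels, 1.76% held 3 or more UMIs of the rule genes, and the 7 of them that were members were left out of the comparisons that follow.

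Of the rule genes, Col1a2 (ENSMUSG00000029661.16, chromosome 6 from 4504814 to 4541544 in GRCm38) was detected in 94.3% of members. Col3a1 (ENSMUSG00000026043.18, chromosome 1 from 45311538 to 45349706) was found in 78.9%, Col1a1 (ENSMUSG00000001506.10, chromosome 11 from 94936224 to 94953042) in 69.4% and Dcn (ENSMUSG00000019929.16, chromosome 10 from 97479609 to 97518143) in 41.7%. All 4 lie on the plus strand, and Col1a2 and Col3a1 each overlap 1 further annotated gene on that strand. Levels are given as CPM, the UMIs of a gene per 1000000 UMIs summed over the members of a library. Col3a1 lay between 782.6 and 1130 CPM with a median of 900.5 in the WT libraries, and at 968.5, 1116, 1022 and 957.8 CPM in Het males 1 to 3 and Het female 1. Dcn lay between 300.4 and 457 CPM with a median of 310.4 in WT, and at 259.9, 294.5, 324.6 and 239.2 CPM in Het. Both genes overlapped between the genotypes, and the highest Dcn level was that of WT male 4.

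Col1a1 ranged from 538.7 to 2216 CPM in WT with a median of 840.8, and was 631.4, 742.9, 653.6 and 820.7 CPM in Het. Col1a2 ranged from 1506 to 3557 CPM in WT with a median of 1636, and was 1448, 1718, 1664 and 1810 CPM in Het. WT female 3 was the highest library in both, and the next WT libraries stood at 1015 and 1929 CPM. In that library 3 of 125 members held 608 of its UMIs of the rule genes, 36.9% of the total. These were the members whose UMIs were at least 5% rule genes, a threshold chosen after seeing the data. They held no UMI of Col3a1, Dcn, Lama1, Foxc1 or Bnc2. All of them held Ibsp, a matrix protein of bone (2, 2 and 1 UMIs), and Runx2, the factor that directs bone-forming cells (3, 1 and 19 UMIs). Of the other bone genes looked at, Bglap, Alpl and Postn had 0 UMIs in them, and Sp7 had 1 UMI in 1 of them. In their summed counts Spp1, which encodes osteopontin, reached 7682 CPM against 4.16 CPM in the other members. Sparc, a collagen-binding protein abundant in bone, reached 7152 against 247 CPM. Without these 3 nuclei WT female 3 had 1001 CPM of Col1a1 and 2252 CPM of Col1a2, and the genotypes still overlapped.

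**Figure D1:**
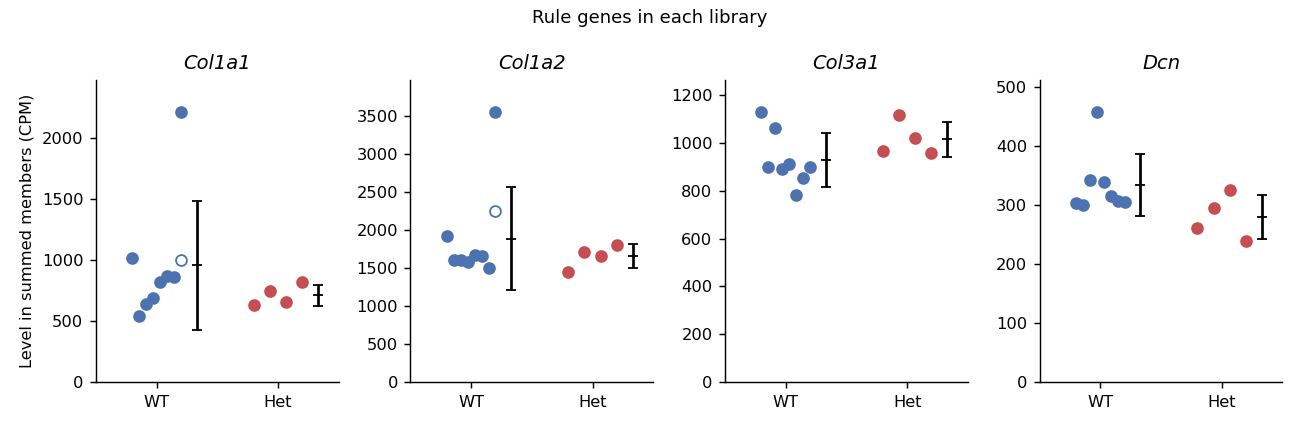
Levels of Col1a1, Col1a2, Col3a1 and Dcn (CPM, vertical axis from 0) in the summed members of each library, with a filled point per library for 8 WT and 4 Het, bars for the mean and SD, and open points for WT female 3 without its 3 nuclei richest in these genes. The points of the genotypes overlap for every gene, and WT female 3 stands above the other libraries for Col1a1 (2216 CPM) and Col1a2 (3557 CPM).

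Beyond the genes of the rule, members were rich in transcripts of meningeal fibroblasts. The lists of markers used here and below were chosen with earlier results of these data known. Counts within them therefore describe the members and are not a test of their type. Of 15 further fibroblast markers 14 were higher in members than in all other filtered nuclei in 12 of 12 libraries, with Fbln2 the exception. Of 10166 genes with at least 50 member UMIs, 33.0% were higher in members in every library, and of all 26612 genes with a member UMI 13.1% were. These shares are the background for this and the counts of lists that follow, where whole lists are counted, genes under 50 UMIs included. Among the 14 markers were Col5a2, a fibrillar collagen chain at a median of 559.8 CPM over libraries against 20.4 CPM in the other nuclei pooled, Pdgfra, a growth factor receptor of mesenchymal cells, at 190.2 against 26.7 CPM, and Ogn, the proteoglycan osteoglycin, at 175.2 against 2.96 CPM. At least 2 of these 15 genes were detected in 94.3% of members, against 2.48% of excitatory, 2.89% of inhibitory, 51.9% of mural and 43.8% of endothelial marked nuclei. When each member was thinned to 800 UMIs the share was 72.4%. The neuron-marked nuclei were the deeper ones.

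The 25 genes with the highest ratio to the other nuclei held the 4 rule genes. All 25 were higher in 12 of 12 libraries, which their choice by this ratio nearly fixed in advance. Bnc2, a zinc finger protein of mesenchyme, had a median of 2341 CPM against 40.6 CPM in other nuclei and 12.3 CPM in mural nuclei. Bmp6, a bone morphogenetic protein, had 1417 CPM against 20.5 and 12.1. Slc6a13, a transporter of GABA and taurine found in the leptomeninges, had 575.7 CPM against 6.09 and 13.6. These genes were low in mural nuclei, and others on the list were less so. Colec12, a scavenger receptor, had 1107 CPM in members and 253.5 in mural nuclei, and Slc6a20a, a transporter of proline, had 546 and 206.8 CPM. Tbx18, a T-box factor that mural cells also use, had 382.7 and 75.6 CPM. The others on the list included Cped1, Ranbp3l, Prdm6, Trabd2b, Sned1, Itgbl1, Adamts12, Sidt1, Aldh1a2, Ptgds, Slc7a11, Ror1, Col4a5 and Lrrk1. Slc7a11 is the cystine and glutamate exchanger, Ror1 a receptor of Wnt5a, and Ptgds the synthase of prostaglandin D.

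**Figure D2:**
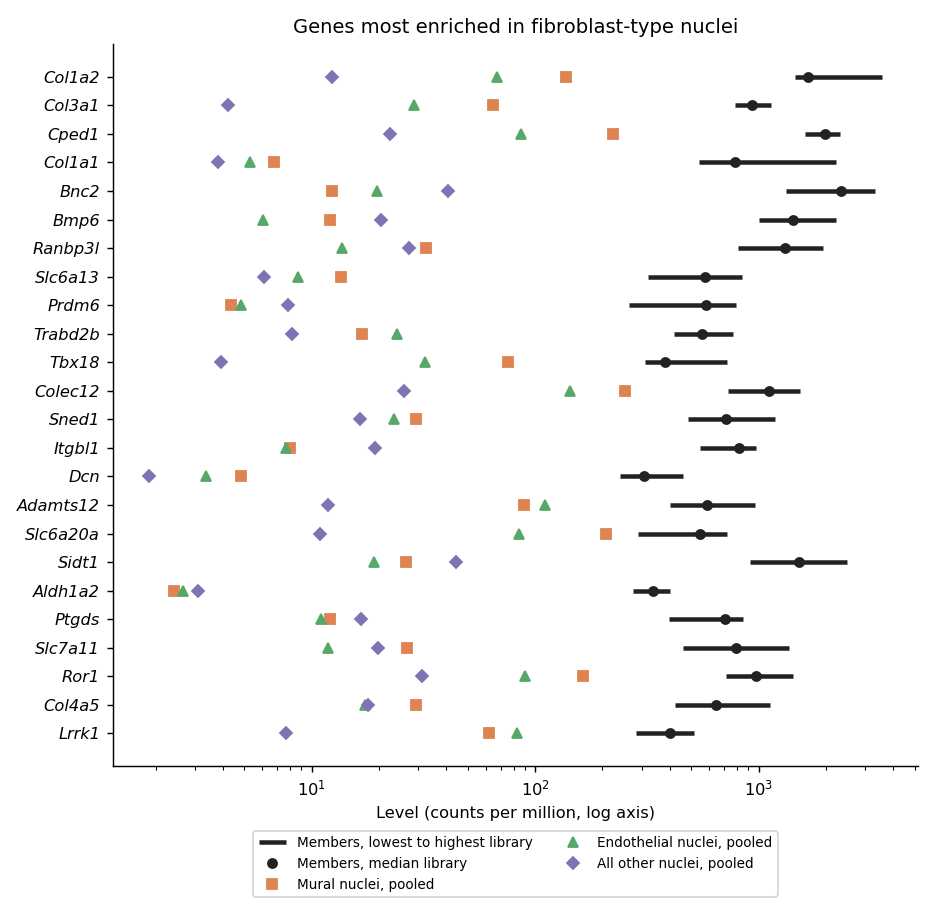
Levels (CPM, log axis) of genes among the 25 with the highest median ratio of members to all other filtered nuclei, with a point for the median and a line from the lowest to the highest of 12 libraries for members, and marks for mural, endothelial and all other nuclei pooled over libraries. Every gene lies above the other nuclei in all libraries, for example Bnc2 at 1328 to 3320 CPM against 40.6, as genes chosen for this ratio. The gap to mural nuclei is narrower for Colec12, Slc6a20a and Tbx18.

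Of 18 transcription factors of the meninges, 14 were higher in members than in other nuclei in all libraries. Foxc1, which the meninges need to form, had a median of 192.3 CPM against 4.20, Foxd1 had 132.1 against 1.63, Tbx15 had 338 against 5.11, and Zic1, a zinc finger factor of meningeal progenitors, had 412.2 against 32.4 CPM. Tcf21, a factor of visceral fibroblasts, was found as 1 UMI in all members. The share of members with at least 2 of the 18 was 94.7%. It was 24.5% in excitatory, 36.8% in inhibitory, 83.3% in mural and 69.8% in endothelial marked nuclei. Foxp1 and Foxp2 on the list are also neuron genes (1053 and 525.8 CPM in other nuclei). Their part in these shares was not tested.

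The members carried markers of more than 1 layer. At least 2 pial markers were found in 70.5% of members and in 2.39% of excitatory, 26.7% of mural and 19.01% of endothelial nuclei. At least 2 arachnoid markers were found in 66.4% of members against 0.309%, 3.05% and 2.01%. For markers of the dura and skull the share was 19.98% against 4.52%, 6.58% and 3.42%. Both pial and arachnoid markers, without the third list, were carried by 1080 members (45.2%), pial markers alone by 382 (16%), arachnoid markers alone by 258 (10.8%), those of the dura and skull alone by 148 (6.20%), and none of the lists by 190 (7.96%). The median depth was 1390.5 UMIs in members with pial markers alone, 1728 with pial and arachnoid markers, 1755 with none of the lists and 2677.5 with all 3. Thinned to 800 UMIs, the shares were 50.1% for pial, 41.2% for arachnoid and 7.88% for dural and skull markers.

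The pial list was led by genes of the basement membrane. Lama1, the laminin alpha chain of the pial surface, had a median of 561.7 CPM over libraries against 16 CPM in other nuclei, and Lama2, a second alpha chain, had 802.2 against 41.5 CPM. Col4a5 and Col4a6, neighbouring genes for type IV collagen chains, had 646.4 and 426.6 CPM against 17.8 and 8.93 CPM. S100a6 and Ngfr of the same list were close to absent, with 17 and 22 UMIs in all members. Of 25 basement membrane genes 16 were higher in members than in other nuclei in all libraries. Among them were both nidogens (Nid1 at 280.8 against 13.5 CPM, Nid2 at 204.7 against 8.51) and Hspg2, the proteoglycan perlecan (102.3 against 8.19). Agrn, the proteoglycan agrin, was level, with 117.5 CPM in members and 119.9 CPM in the rest when pooled. The basement membrane list did not set members apart from mural and endothelial nuclei. At least 2 of its genes were found in 94.97% of members, 97.56% of mural and 97.17% of endothelial nuclei. Its summed level was 4273 to 7419 CPM in members of a library and 6609 CPM in mural nuclei pooled.

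Among the arachnoid genes, 12 of 13 were higher in members in all libraries. Aldh1a2, the enzyme that makes retinoic acid, had a median of 337.2 CPM against 3.10, and Slc22a6, an organic anion transporter, had 294.1 against 3.47. Slc47a1, an exporter of organic cations, had 93.5 against 1.05 CPM, and Cldn11, the claudin of arachnoid tight junctions, had 127.8 against 2.72 CPM. Ptgds was detected in 23.8% of members although its median was 708.9 CPM, so its UMIs lay in a minority of nuclei. Of 13 genes of the dura and skull 7 were higher in members in all libraries. Matn4 was higher in 4, Sp7 in 5, Runx2 in 7, Dkk2 in 8 and Crym in 9 of the 12. Levels in this list were low, with Postn (periostin) at 178.9 against 4.65 CPM, Ccn3 at 92.96 against 3.22, and Sp7, a factor of bone-forming cells, at 11 UMIs in all.

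Matrix and signalling genes were counted in the same way. The rule itself set the outcome for Col1a1, Col1a2 and Col3a1 in the collagen list and for Dcn in the proteoglycan and imprinted lists, and the counts include them. Of 17 fibrillar and associated collagens 15 were higher in members in all libraries, of 28 genes of proteoglycans, microfibrils and elastic fibers 19, and of 24 genes of collagen processing and matrix turnover 17. Serpinh1, the collagen chaperone, had 133.7 against 9.79 CPM, and Lox, which cross-links collagen, 57.2 against 1.04. Of 29 genes of retinoic acid, BMP and chemokine signalling 21 were higher. Cxcl12 had 224.2 against 7.73 CPM, Bmp4 had 80.5 against 1.27, Bmp5 had 206 against 4.42, Bmp7 had 207 against 6.98, and Tgfbr3, a coreceptor of the family, had 484.3 against 15.7 CPM. Stra6, which takes up retinol, had 47.4 CPM against 2.69. Of 22 membrane transporters 17 and of 15 imprinted growth genes 9 were higher in all libraries, including Igf2, a fetal growth factor, at 324.7 against 8.28 CPM, and H19, its imprinted neighbour, at 79.9 against 1.71 CPM. For cell cycle genes it was 5 of 20, or 33.3% of the 15 with at least 50 member UMIs, a share near that of all such genes. At least 2 of the 20 were found in 10.0% of members, against 5.97% of excitatory and 13.2% of inhibitory marked nuclei. At least 2 transporters were found in 97.1% of members, 88.8% of mural and 87.6% of endothelial nuclei. For imprinted genes outside the rule these shares were 93.1%, 82.7% and 68.8%.

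RNA of genes that mark other cell types was present in members. Of 7 pan-neuronal genes all were lower in members than in other nuclei in every library. Their summed level was between 3655 and 5871 CPM in the WT and between 5260 and 6587 CPM in the Het libraries, against 14480 to 16710 CPM in other nuclei and 5216 CPM in mural nuclei. At least 2 of them were found in 58.4% of members, 65.3% of mural and 52.3% of endothelial nuclei. Excitatory or inhibitory neuron markers reached the level of a neuron mark in 130 members (5.45%). The mark for a high doublet score was carried by 191 members (8.00%). It was given to 5% of the barcodes of each library before the quality filter, so members carried it more often than barcodes at large. Mural markers lay at 131.1 to 164.4 CPM in WT and 79.0 to 137.4 CPM in Het, and the list holds the 4 mural genes that the rule limits. Endothelial markers lay between 94.4 and 247.9 CPM, choroid plexus markers between 15.1 and 325.1 and macrophage markers between 7.57 and 127.6, with C1qb of the last list at 0. Of the mural genes Pdgfrb had 77.6 to 125.4 CPM in WT members against 6.58 to 18.3 CPM in other WT nuclei. Of markers with at least 50 member UMIs, 2 of 4 endothelial and 1 of 5 astrocyte genes were higher in members in every library. Whether members made this RNA themselves was not tested. The part of this RNA in the results below was not tested except where members with neuron genes were left out. That setting leaves out 130 members, while 58.4% held at least 2 pan-neuronal genes, so it cannot test free neuronal RNA.

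Members differed among themselves along 2 components of their expression, and the first followed depth and neuronal RNA. It took 2.04% of the variance, correlated with log UMIs at r = 0.639 across members, and had genes such as Anks1b, Gria2, Dlgap1, Lrrc7, Myt1l, Nkain2 and Arpp21 at one end and Cped1, Rora, Bmp6, Sidt1, Colec12, Bicc1 and Col1a2 at the other. The second took 1.31% and had r = 0.235 with log UMIs. Slc4a10, a sodium bicarbonate transporter, Bnc2, Adamtsl3, Tmeff2, Hmcn1, Slc38a2, Slit2, an axon guidance ligand, and Slc26a7 were at its upper end. Sidt1, Slc1a3, Tcf4, Rora, Ptn, Zfp536 and Col4a5 were at the lower end. Col4a5 was found in 11.9% of members with Slc26a7 and in 59.2% of those without.

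Each library was split at its median of the second component, which gave 1190 members on the upper side with a median of 2045.5 UMIs and 1197 in the lower with 1569. The values below describe how the members spread along this axis, since the same genes made it. Of 10166 genes with at least 50 member UMIs, 455 were higher on the upper and 542 on the lower side in all 12 libraries, which is 4.48% and 5.33%. Pial and basement membrane genes lay on the lower side: 6 of 8 pial markers and 11 of 20 basement membrane genes were higher there in all libraries, and 0 of either on the upper side. Lama1 had 1001 CPM on the lower and 226.3 CPM on the upper side, Col4a5 had 1154 and 292.1, Col4a6 had 729.2 and 125.2, Lamc3 had 202.4 and 35.4, and Cxcl12 had 314.7 and 139.4. Lama2 of the same lists was level, with 809 and 814 CPM.

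Most dural and skull markers lay on the upper side, with 6 of 10 higher there in all libraries and 0 in the lower. Postn of the same list was an exception and was not higher on the upper side. Ccn3 had 182.4 CPM on the upper and 13.4 CPM on the lower side, Smoc2 had 134.8 and 15.2, Alpl (alkaline phosphatase) had 99.3 and 2.95, and Mgp, an inhibitor of calcification, had 74.5 and 0.421. The arachnoid markers were divided. Slc47a1, with 206.4 and 0 CPM, Cdh1, the epithelial cadherin of the arachnoid barrier, with 94.6 and 4.21, Cldn11, with 223.4 and 28.6, and Ptgds, with 1005 and 283.7, were higher on the upper side. Slc6a13, with 430.2 and 776.7 CPM, and Slc22a6, with 219.5 and 383.3, were higher on the lower side. Over all members Lama1 was found in 60.1% of those with Slc6a13 and in 24.2% of those without it.

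**Figure D3:**
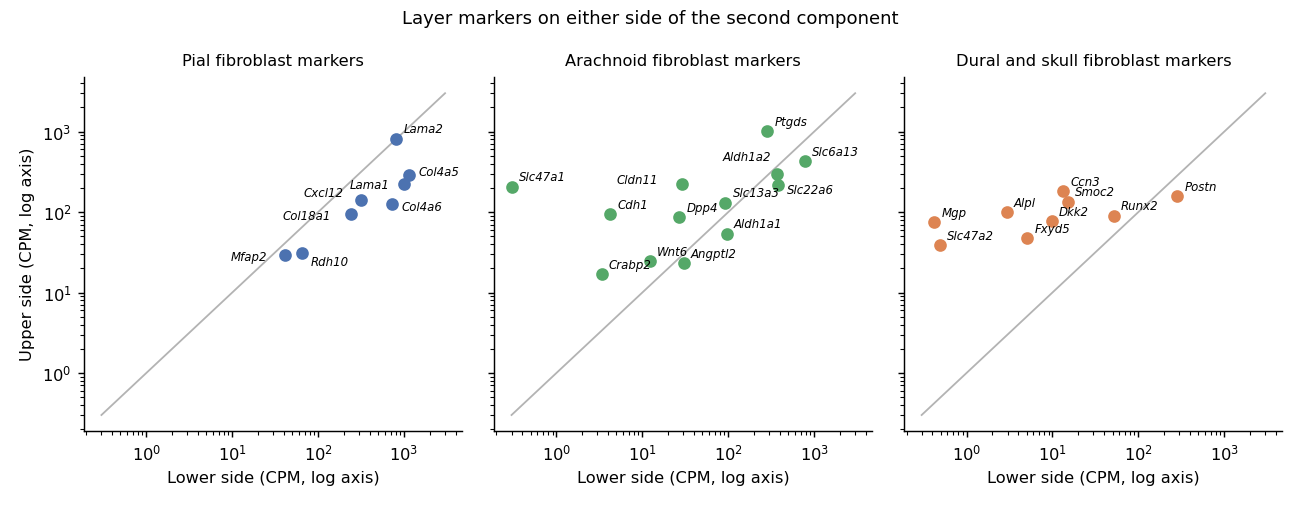
Named pial, arachnoid and dural and skull markers with at least 50 member UMIs, with the level on the lower side of the second component on the horizontal and on the upper side on the vertical axis (CPM, both log axes) and a line where they are equal. Pial markers lie on or below the line and dural and skull markers above it except Postn, while arachnoid markers lie on both sides, and Slc47a1, which had 0 CPM on the lower side, is drawn at the left edge.

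Other groups were split as well. Collagen genes with 5 of 15 and proteoglycan and microfibril genes with 6 of 24 were higher on the upper side in all libraries, among them Col12a1 (625.6 and 112.8 CPM), Fn1 for fibronectin (865.9 and 178.9) and Col14a1 (109.3 and 0.632). On the lower side it was 1 of the 15 and 0 of the 24, and the 6 include the rule gene Dcn. Of the transcription factors Tbx15 (565.2 and 120.6 CPM), Foxc2 (83.1 and 14.3) and Foxd1 (189.3 and 61.5) were higher on the upper side and Tbx18 (251.2 and 656) in the lower, while Foxc1 was level at 193 and 178 CPM. Of the signals Bmp4 (115.5 and 36.6 CPM) lay with the upper and Bmp6 (1038 and 2030) with the lower side. Of 11 imprinted genes with at least 50 member UMIs, 4 were higher on the upper side in all libraries and 0 on the lower, and the 4 include Dcn. H19 (136 and 18.1), Plagl1 (349.1 and 29.2) and Grb10 (1171 and 400.9) of this list were higher on the upper side. The lower side also had the more neuronal RNA, with 5 of 7 pan-neuronal genes higher there in all libraries, among them Myt1l at 589 against 183.1 CPM, and no cell cycle gene went one way in all libraries. Of 4 endothelial markers, Tek (61.5 and 2.84 CPM) and Cdh5 (115.0 and 48.2), which encodes the cadherin of vessel lining, were higher on the upper side in all libraries. The part of this RNA in the split was not tested. Of the rule genes, Dcn (355.1 and 250.5 CPM) was higher on the upper side in all libraries, and Col1a1 (902.7 and 689 CPM) was in 9 of 12, Col1a2 (1773 and 1661) in 6 and Col3a1 (904 and 1026) in 2. The median of the second component per library was -5.33 to -0.791 in WT and -4.61 to -2.92 in Het, which overlapped.

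The share of members among filtered nuclei did not differ between genotypes beyond the spread between libraries. In WT it ranged from 1.21% of 11048 nuclei in WT male 1 (95% exact binomial interval 1.02 to 1.44) to 3.67% of 7327 in WT male 2 (3.25 to 4.13), with a median of 2.41%. In Het it was 3.02% of 10967 nuclei (2.71 to 3.36), 1.53% of 10731 (1.31 to 1.78) and 2.92% of 11750 (2.62 to 3.24) in males 1 to 3 and 2.40% of 8821 (2.09 to 2.75) in the female. Within each genotype the highest and lowest intervals did not overlap, so libraries of the same genotype differed by more than counting error, and the Het range lay inside that of WT. The mean share was 2.31% with an SD of 0.803 over 8 WT libraries and 2.47% with an SD of 0.682 over 4 Het libraries. The difference was 0.158 percentage points with a 95% interval, from inverting the permutation test, of -0.955 to 1.26 (exact permutation test over libraries, two-sided p = 0.731, adjusted p = 0.747 over 4 measures). The smallest p the test can give is 0.00404.

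Set against the mural and endothelial marked nuclei alone, members were 67.4% ± 8.76 (SD over 8 libraries) of the WT and 62.3% ± 14.6 (SD over 4) of the Het nuclei counted, a difference of -5.06 points (-21.8 to 11.1, exact permutation p = 0.477, adjusted p = 0.747). The WT libraries ranged from 56.8% to 80.8% with a median of 65.7%, and the Het libraries had 56.6%, 44.6%, 76.7% and 71.4%. Het male 2 was thus lowest and the others fell within or just below the WT range. Across the 12 libraries the share of members and that of mural nuclei had Pearson's r = 0.483 (permutation p = 0.114, adjusted 0.117) and Spearman's rho = 0.385 (p = 0.221, adjusted 0.279 by permutation), and r = 0.457 without WT male 2 and Het male 2. With the endothelial share r was 0.481 (permutation p = 0.117, adjusted 0.117) and rho 0.343 (p = 0.279, adjusted 0.279 by permutation), and r was -0.112 without WT male 2 and Het male 1, so that relation rests on those libraries. Within the 8 WT libraries r was 0.729 with the mural share (exact permutation p = 0.0496) and 0.709 with the endothelial share (exact permutation p = 0.06), both unadjusted. Both values rest on WT male 2, since without it they were 0.362 and 0.314 over 7 libraries. The 2 relations were computed over all libraries and within WT, and the shares have a common denominator. A median member held 1756 ± 225 UMIs in WT (SD over 8 libraries) and 1792.5 ± 88.9 in Het (SD over 4), a difference of 36.4 (-235 to 263, exact permutation p = 0.747, adjusted p = 0.747).

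**Figure D4:**
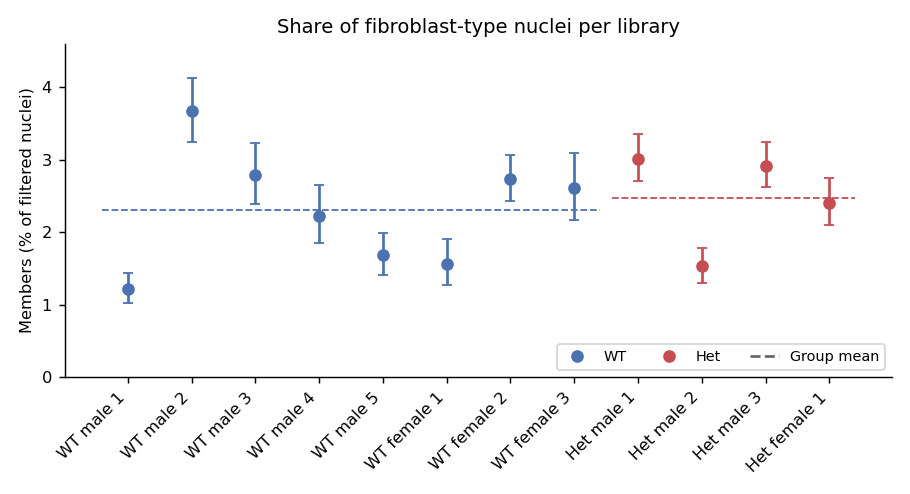
Members as a percent of filtered nuclei (vertical axis from 0) in each of 8 WT and 4 Het libraries, with exact binomial 95% intervals on the points and a dashed line at the mean of each genotype. The shares run from 1.21% to 3.67% in WT and from 1.53% to 3.02% in Het, and the means of 2.31% and 2.47% lie within the spread of either group.

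Myt1l (ENSMUSG00000061911.15, chromosome 12 from 29528384 to 29923213 on the plus strand, overlapping 2 annotated genes of the other strand) checks the labels only weakly, since UMIs do not tell the frameshift transcript from the intact one. In the nuclei outside the members it had between 1285 and 1626 CPM with a median of 1429 in WT, and 1566, 1657, 1569 and 1584 CPM in Het, so that the Het libraries were not lower. In members it ranged from 194 to 516.4 CPM with a median of 310.6 in WT, and it was 391.7, 666.8, 444.5 and 357.7 CPM in Het. Het male 2 was above every WT library and the other Het libraries lay inside the WT range. The means were 336 ± 117 CPM (SD, n = 8) and 465 ± 139 CPM (SD, n = 4), a difference of 129 CPM (-55.9 to 299, exact permutation p = 0.133, adjusted p = 0.533). A UMI of Myt1l was found in 24.9% of members, close to the 29.5% of mural and 30.2% of endothelial nuclei, against 96.7% of excitatory nuclei. Without the members that carried neuron genes the means were 246 CPM in WT and 352 CPM in Het, a difference of 106 CPM (exact permutation p = 0.0727).

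No gene passed the test between genotypes in members. The edgeR quasi-likelihood test on sums per library called 0 of 6783 genes (0%) at an adjusted p under 0.05 and a log2 fold change of 0.2 or more, with a smallest adjusted p of 0.863. At an unadjusted p under 0.05 there were 322 genes (4.75%), 168 of them higher and 154 lower in Het. DESeq2, fitted to 26262 genes without that filter, called 0 and had 350 at that unadjusted level. The median log2 fold change was 0.000475 and the median standard error 0.205. For 6312 genes (93.1%) the fold change plus or minus 2 standard errors stayed between -1 and 1 on the log2 scale. Myt1l had a log2 fold change of 0.48 (SE 0.226) at an adjusted edgeR p of 0.992.

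Gene groups of the meninges were centred near or below 0. Of the pial markers 8 were tested, with a median log2 fold change of -0.04 and 1 below the unadjusted threshold, Mfap2, which codes for a microfibril protein. The 11 arachnoid markers had a median of -0.05 with none below it, the 15 collagens, rule genes included, -0.09 with none, and the 19 basement membrane genes -0.05 with none. The 14 transcription factors had -0.14 with 1, and the 8 dural and skull markers -0.31 with 2, Runx2 (-0.80, SE 0.265) and Ccn3 (-0.51, SE 0.230). Without the 3 nuclei of WT female 3 described above, Runx2 was at 81.7 CPM in that library in place of 177.6, against 54.6 to 113.1 CPM in the other WT libraries and 53.9, 41.2, 57.5 and 43.5 CPM in Het. Its log2 fold change was then -0.63 (SE 0.195) at an adjusted edgeR p of 0.931. The 18 proteoglycan and microfibril genes had -0.14 with 2, and the 18 of collagen processing -0.16 with 1, the lysyl oxidase Loxl3. Among 21 signalling genes (median -0.01) Dhrs3, which reduces retinal, was higher at the unadjusted level and Igf2 lower (-0.54, SE 0.245). The 17 transporters had a median of -0.05, the 11 imprinted genes -0.23 and the 6 cell cycle genes -0.39. None of these genes passed the adjusted test, and the shares below the unadjusted threshold, 0% to 25.0%, are of lists of at most 21 genes against 4.75% of all genes.

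Several lists of other cell types lay above 0, and none of their genes passed the adjusted test. The 2 excitatory neuron markers tested had a median log2 fold change of 0.33. The 3 endothelial markers had a median of 0.12, but the only one of them at an unadjusted p under 0.05, Cdh5, was lower in Het (-0.45, SE 0.198), and the summed level of that list was 177 ± 47.1 CPM in the 8 WT and 155.5 ± 53.2 CPM in the 4 Het libraries. The 3 astrocyte markers had a median of -0.13, with a summed level of 1958 ± 327 CPM in WT and 1720 ± 193 CPM in Het. The 2 mural markers tested had a median of -0.42, with 1 of them lower at an unadjusted edgeR p under 0.05. The summed level of the mural list was 144 ± 13.6 CPM in WT and 114.5 ± 27.2 CPM in Het. Both values are a description, since the rule limits these genes. The only oligodendrocyte lineage marker tested had 0.58, and the only choroid plexus marker tested had 1.60. The summed level of the oligodendrocyte list was 329 ± 107 CPM in the 8 WT and 475 ± 38.3 CPM in the 4 Het libraries. At least 2 astrocyte genes were found in 18.5% ± 8.25 of members in the WT and in 24.2% ± 3.002 in the Het libraries. The 7 pan-neuronal genes had a median of 0.30, with Meg3 (0.27, SE 0.118), Syt1 (0.44, SE 0.199) and Myt1l at an unadjusted p under 0.05, and the summed level of the list was 4788 ± 683 CPM in the 8 WT and 5843 ± 623 CPM in the 4 Het libraries (mean and SD). Erbb4, 1 of 3 inhibitory neuron markers tested, had 0.64 (SE 0.241), and the summed level of that list was 648 ± 252 CPM in the 8 WT and 985 ± 322 CPM in the 4 Het libraries. At least 2 pan-neuronal genes were found in 53.1% ± 10.6 of members in the 8 WT and in 63.5% ± 8.998 in the 4 Het libraries. The part of these differences in the genes named below was not tested beyond leaving out members with neuron genes, which leaves neuronal RNA in the other members.

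**Figure D5:**
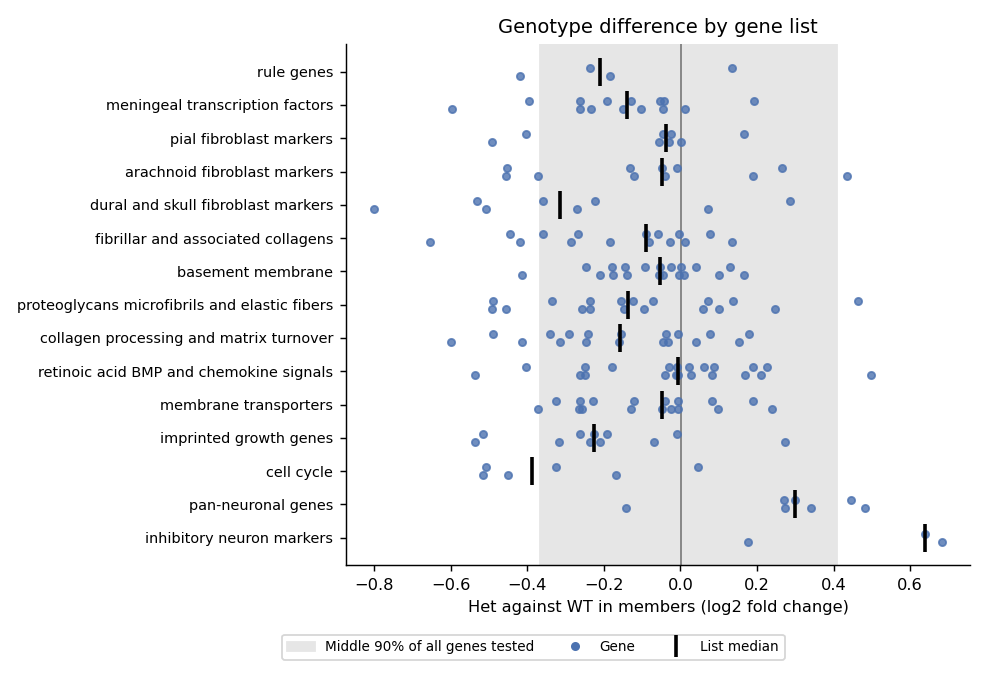
Log2 fold change of Het over WT in members for the tested genes of each list (horizontal axis, log2 scale), with a point per gene (rule genes as a description only), a bar at the median of the list and a grey band over the middle 90% of all 6783 genes tested. Medians of the lists of layers, matrix, transporters, signals and imprinted genes lie between -0.31 and -0.01, that of cell cycle genes at -0.39, those of the pan-neuronal and inhibitory neuron lists at 0.30 and 0.64, and no gene passed the adjusted test.

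The 10 genes with the smallest unadjusted p are named by rule and did not pass, with adjusted edgeR p-values from 0.863 to 0.939. Gm15270, a transcript without coding sequence that overlaps 2 genes, Gm6893 and Ccn2, had between 26.0 and 60.4 CPM in the WT libraries with a median of 36.7, and 15.4, 16.2, 19.4 and 10.97 CPM in Het. Its log2 fold change was -1.29 (SE 0.277), and it rested on 5 to 21 UMIs in the members of a library. In the other nuclei it had between 1.77 and 4.72 CPM, below the members in every library.

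Tenm3, a teneurin that guides axons and marks neurons, had between 139 and 304.5 CPM in WT members with a median of 199.4, and 306.4, 475.5, 324.5 and 261.8 CPM in Het, where only the female fell inside the WT range. Its log2 fold change was 0.77 (SE 0.180). In the other nuclei it was the higher gene, with 572.9 to 674.9 CPM in WT and 776.3, 999.3, 1077 and 582.4 CPM in Het, so that the 3 Het males were above the WT range and Het female 1 was inside it there too. Kctd16, a subunit of GABA-B receptors, had 22.3 to 80.3 CPM in WT with a median of 41.1 and 101.1, 124.1, 61.2 and 76.8 CPM in Het, at a log2 fold change of 1.05 (SE 0.260) that was 0.27 without members carrying neuron genes. In other nuclei Kctd16 had 147.9 to 352.3 CPM. Syne1, for the nuclear envelope protein nesprin 1, had a log2 fold change of 0.65 (SE 0.162). Without members carrying neuron genes the log2 fold change was 0.85 for Tenm3 and 0.65 for Syne1.

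Mrc1, the mannose receptor of the macrophages that live along vessels and in the meninges, had 0 to 56.1 CPM in WT with a median of 3.56, and 103.9, 10.8, 52.2 and 33.7 CPM in Het. It was found in 0 to 5 members of a WT library, where a library held 99 to 279 members and WT male 5 had 5 of 138. In the Het libraries it was found in 10 of 331, 4 of 164, 6 of 343 and 3 of 212 members. In WT male 4, 1 nucleus held all 13 of that library's Mrc1 UMIs. The log2 fold change was 2.41 (SE 0.620), and it ranged from 1.73 to 3.18 with each library left out. The values rest on a few nuclei in each library. Of the remaining genes Bcorl1, a corepressor, had -0.76 (SE 0.179), Marveld1 -0.97 (SE 0.238), BC052040 -0.72 (SE 0.189), Selenot, a selenoprotein of the endoplasmic reticulum, -0.70 (SE 0.190) and the receptor gene Gpr153 -1.11 (SE 0.303). All 10 kept their sign with each library left out, as a description, since they were named for a small p in these same libraries.

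The difference between genotypes was also set against that in the mural marked nuclei of the same 12 libraries. The test of the difference of the effects called 0 of 7061 genes. Before adjustment 292 genes had p under 0.05, and the smallest adjusted edgeR p was 0.469. For Myt1l the members minus mural difference was 0.04 on the log2 scale (SE 0.237), and separate fits to each group gave genotype effects of 0.48 in members and 0.46 in mural nuclei.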

How the data were processed

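Nuclei of forebrain from 12 mice were fixed and barcoded by split pooling. The authors mapped reads to mm10 and counted UMIs with ScaleRna and called nuclei with its CellFinder, and deposited expected counts, unnormalized UMI counts in which a UMI matching several genes was divided. The design here assumed whole counts, so sums per library were rounded before count models. The study removed multiplets with DoubletFinder. Here the 5% of barcodes with the highest share of simulated neighbours were marked as doublets and kept, and free RNA was not subtracted.

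Of 55335 listed genes, 54587 identifiers matched GENCODE M21 (GRCm38), which gave positions. Expression was tested with edgeR 4.0.16 in R 4.3.3 (TMM, filterByExpr, genotype only, adjusted p under 0.05 and a log2 fold change of 0.2), with DESeq2 1.42.0 as an alternative, and the difference from mural nuclei with library as a block. Library measures were tested by exact two-sided permutation of 12 libraries, with Benjamini-Hochberg adjustment over 4. Intervals of shares are exact binomial at 95% and cover counting error only. The deposited files were otherwise read with Python 3.11.15, numpy 2.4.6, scipy 1.17.1 and scikit-learn 1.9.0. The scripts were tested on simulated data.

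Named genes were the rule genes and Myt1l, genes of fixed lists, up to 20 called genes or, with fewer than 10 called, the 10 of smallest unadjusted p, the 25 of highest ratio to other nuclei (10 CPM added) with at least 50 UMIs, and 8 at each end of 2 components. The members and lists were chosen with earlier results of these data known. Alternatives were marker minimums of 2 and 5 UMIs, rounding, a filter of genes to UMIs of 0.9, thinning to 800 UMIs, doublets or neuron genes left out, other filters, size factors and covariates, males, each library left out and, chosen after seeing the data, the 3 nuclei of WT female 3 richest in the rule genes left out. The spread between libraries is that between single animals, measured in 1 run. Some genes that the naming rule includes are not reported here.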

Additional observations from a re-analysis of the deposited data

Results flagged for a closer look

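In 36 groups tested for a library that stands apart, 4 did, and chance alone flags about 1 in 20 groups. The flags are a description and not a test against that rate. Col1a1, Col1a2 and Dcn chose the members, and Selenot was named for its small unadjusted p. WT female 3 stood apart in WT for Col1a1 with 2216 CPM (next 1015) and for Col1a2 with 3557 CPM (next 1929). Leaving out the 3 nuclei richest in rule genes gave 1001 and 2252 CPM, as a value and not as a test. WT male 4 stood apart for Dcn with 457 CPM (next 342.7), and WT female 1 for Selenot with 80.8 CPM (next 59.2).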

How the results depend on the processing

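Without a filter on low counts the edgeR test called 41 of 26262 genes, 35 of them higher and 6 lower in Het. It called 0 of 6783 with the filter and 0 under the other filters, and DESeq2 on 26262 genes called 0. The labels' replicate numbers did not pair the libraries (correlations of deviations 0.045, -0.020, 0.041 and 0.030 in 4 pairs, none of them the best match), and with sex and replicate number as a block the edgeR test called 1 gene, Mrc1 (log2 fold change 3.86, adjusted p 0.00879). With that block the differences were 0.159 points for the member share, -6.75 for the share among stromal and vascular nuclei, 51.9 UMIs and 122 CPM for Myt1l, where 4 pairs cannot give a p below 0.125. With a marker minimum of 5 UMIs the difference in UMIs per member was -27.6 (exact permutation p 0.909). With each library left out, the difference ranged from -0.0258 to 0.471 points for the member share, turning below 0 without Het male 1, from -9.86 to 0.859 for the share among stromal and vascular nuclei, above 0 without Het male 2, from -0.143 to 93.7 UMIs per member, below 0 without WT female 1, and from 62.0 to 165 CPM for Myt1l. None of these 4 measures passed the threshold in any setting. With each library left out the calls stayed at 0 genes for members and ranged from 0 to 1 for the difference from mural nuclei, where Spock3 was called without Het male 1 (adjusted edgeR p 0.0482). As a description, since this gene chose the members, the log2 fold change of Col1a2 with a library left out ranged from -0.23 to 0.025, the highest without WT female 3, where that of Col1a1 was -0.11. Without the 3 nuclei of WT female 3 richest in the rule genes, a setting chosen after seeing the data, 0 of 6779 genes were called and 324 had an unadjusted p under 0.05. The cause of these changes was not tested. Of 134 settings for single named genes 132 kept direction and side of the threshold. These genes were the rule genes, Myt1l and the 10 named for the smallest unadjusted p in the same data. The count is therefore a description and gives no support to them. A library gave between 99 and 343 members.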
